A study of Mus musculus with 9 samples.

Results

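Neurons restrict a large set of synaptic, vesicle and cytoskeletal genes to themselves, and the zinc finger protein REST (gene Rest) keeps many of these genes off in other cell types. REST binds a DNA element known as RE1 and recruits the Sin3 complex at one end and the CoREST complex at the other, both of which contain the histone deacetylases HDAC1 and HDAC2. A list of 45 genes, Rest itself and 44 neuronal genes of which many are known REST targets, was followed in bulk RNA-seq of the murine T-cell lymphoma line T15. The list was taken as given and each symbol was matched to 1 of the 35288 listed Ensembl genes. Of the 45 genes, 22 passed the filter on low counts and were tested, and 23 were too low to be tested.

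T15 cells derive from a murine Smarcb1-negative model of peripheral T-cell lymphoma, and all 9 libraries, 3 in each of 3 groups, come from this 1 line. SAHA (vorinostat), an inhibitor of histone deacetylases, was applied to cells of the first treated group at 1 µM in 2 applications over 72 h. Cells of the second group, Smarcb1-RE, carried a lentiviral, doxycycline (Dox)-inducible Smarcb1 cDNA in the pInducer20 backbone, were selected with G418 and received Dox at 0.5 µg/µl for 72 h. According to the study's methods, several stable clones were established after selection, and the labels do not say which clones gave the libraries. For the control group the labels mention both a vehicle and a control plasmid without saying which the 3 libraries received. The study's results describe the sequenced control cells as untreated. Whatever else separates Smarcb1-RE from these libraries (transduction, selection, Dox) therefore cannot be told apart from Smarcb1 itself. If the SAHA cells differed from these libraries in vehicle or plasmid, such a difference cannot be told apart from SAHA itself either. The labels give replicate numbers but not separate cultures, whereas the study's methods call the replicates biological.

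The targeted gene matched the labels. Smarcb1 had 2, 5 and 8 counts in control, 7, 13 and 3 in SAHA, but 151, 147 and 142 in Smarcb1-RE. Library totals ranged from 20900477 to 24941494 estimated counts. Between replicates, the chi-square per gene (1 would be sampling noise) was between 2.07 and 14.1, and both pairs with control replicate 1 had the highest values. No pair agreed within sampling noise, which does not show that the cultures were separate. Of 11 T-cell markers, 9 passed the filter on low counts, whereas Cd2 did not exceed 3 counts and Thy1 did not exceed 6 in any library. Among 7 genes that define neurons and are not on the list, Rbfox3, Slc17a6, Slc32a1 and Gad1 lay at or under 3 counts in every library. The summed level of these 7 markers, most of it from Slc17a7 and Tubb3, was 13.6 to 14.8 CPM (counts scaled to a common library size) in control, 21.7 to 26.9 CPM in SAHA and 19.4 to 21.3 CPM in Smarcb1-RE. Markers of other cells were low and also differed. The 6 glial markers, of which Gfap, Olig1 and Aqp4 stayed at the floor, summed to 10.8 to 11.6 CPM in control, 4.95 to 6.50 CPM in SAHA and 6.99 to 7.29 CPM in Smarcb1-RE. The 5 myeloid markers, with Csf1r and Adgre1 at the floor, summed to at most 2.55 CPM, 7.41 CPM and 1.92 CPM in this order, and the 5 fibroblast markers, with Col3a1, Dcn and Pdgfrb at the floor, to at most 0.465, 1.21 and 0.640 CPM. Of B-cell markers, Pax5 had 0, 6 and 1 counts in control, 22, 11 and 20 in SAHA and, in Smarcb1-RE, 89, 92 and 88, and Ms4a1 had 20, 17 and 22 counts, then 18, 16 and 19, then 79, 85 and 79, so that both were highest in all Smarcb1-RE libraries. The part of these cell types in the results was not tested. In bulk RNA, more cells with a transcript and more transcript per cell cannot be told apart.

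RE1 consists of a left half-site, TTCAGCACC, and a right half-site, GGACAGC, usually with 2 bases between them. Both were searched on both strands of the RefSeq promoter windows (GRCm38.p6, 250 bases before to 50 bases after each transcription start), which were given for 30 of the 45 genes in 41 windows. The left half-site was present in 4 of the 41 windows, those of Celsr3, Nlgn1, Scg2 and Syn1, and in 122 of all 32851 windows (0.371%). The right half-site was present in 2 of the 41 windows, those of Map2 and Scg2, against 6.56% of all windows. These matches describe the letters in the windows and do not show that REST binds there. The sequences around the left half-site are shown because the 4 genes behaved very differently in these libraries. Capitals mark the left half-site and, after it, the 7 bases at the place of the right half-site.
Celsr3 (chr9:108825915-108825941, plus strand): ccgTTCAGCACCgtGGGCAGCacttct
Syn1 (chrX:20921127-20921153, minus strand): ggaTTCAGCACCgcGGTCAGAgccttc
Nlgn1 (chr3:26154116-26154142, minus strand): gagTTCAGCACCctGGTTACTataaca
Scg2 (chr1:79440022-79440048, plus strand): cgtTTCAGCACCGGACAGCtcctcggc
In Scg2 the exact right half-site followed with 0 bases between, on the strand opposite to the gene, close to the transcription start. At the usual spacing of 2 bases, Celsr3 matched 6, Syn1 5 and Nlgn1 3 of the 7 letters of the right half-site. Counted from the RefSeq transcription start of each window, the half-site began 127 bases before that of Celsr3, 232 bases before that of Syn1 and 153 bases before that of Nlgn1. In GENCODE M21 the outermost starts lie elsewhere, 402 bases after the half-site of Celsr3 and 146 bases after that of Syn1. The half-sites of Nlgn1 and Scg2 lie inside the annotated genes. Longer stretches are shown for the tested genes Syn1 and Celsr3, with only the left half-site in capitals. The first ends where the GENCODE gene begins and the second at the RefSeq start.
Syn1 (chrX:20921005-20921168, minus strand): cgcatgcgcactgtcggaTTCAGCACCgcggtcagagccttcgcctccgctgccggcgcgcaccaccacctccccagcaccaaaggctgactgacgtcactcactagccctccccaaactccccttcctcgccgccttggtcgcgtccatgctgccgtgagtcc
Celsr3 (chr9:108825795-108826044, plus strand): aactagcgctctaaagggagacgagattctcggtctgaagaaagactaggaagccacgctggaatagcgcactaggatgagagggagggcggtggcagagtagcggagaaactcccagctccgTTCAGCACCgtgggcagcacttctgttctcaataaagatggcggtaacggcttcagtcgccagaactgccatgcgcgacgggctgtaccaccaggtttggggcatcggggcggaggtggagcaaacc

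Which of the neuronal genes left the detection floor was examined first. A gene was said to lie at the floor when it had 3 counts or fewer, which is about 0.120 to 0.144 CPM and covers counting error only. In control, 19 of the 45 genes were at the floor in all 3 libraries. None of the 19 rose above it in all 3 libraries of either treatment, so the count was 0 for SAHA and 0 for Smarcb1-RE. Among all 20088 genes at the floor in control, 177 (0.881%) left it in SAHA and 358 (1.78%) in Smarcb1-RE. No gene of the list fell to the floor in either treatment. Without control replicate 1, Stmn4 and Elavl3 left the floor in SAHA, and without Smarcb1-RE replicate 2, Syt4 left it in Smarcb1-RE. With a floor of 1 count, Syt4 and Chga left it in Smarcb1-RE.

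The 23 untested genes held 259 counts in all 9 libraries together, and none had more than 12 counts in any library. Of the 23, 16 stayed at or under 3 counts throughout. Gap43, a growth cone protein, and Nefm, the medium neurofilament subunit, had no count in any library, which allows up to 3 counts per library. The chromogranin and secretogranin genes, whose products pack dense-core vesicles in neuroendocrine cells, were all untested. Of these, Scg3 and Scg5 each had a single count in a single library, Scg2 had 2 counts in SAHA replicate 3, and Chgb reached 4 counts in Smarcb1-RE replicate 3. Chga had 1, 0 and 1 counts in control, 0, 0 and 0 in SAHA and, in Smarcb1-RE, 3, 2 and 3. Microtubule regulators of growing axons were as low: Stmn2 and Stmn3 did not exceed 2 counts, and Map1b did not exceed 3. The calcium sensor gene Syt1 and the synapsin gene Syn2 stayed at 0 or 1 count. Nlgn1 did not exceed 2 counts, nor did Dpysl3 and Bex1, and Nefl and Gdap1 did not exceed 1.

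The 7 untested genes that exceeded 3 counts in any library were Sv2b, Elavl3, Cplx1, Stmn4, Map2, Syt4 and Chgb. Sv2b, a vesicle glycoprotein gene, had 5, 3 and 4 counts in control, 11, 12 and 8 in SAHA and, in Smarcb1-RE, 1, 2 and 4, and its SAHA libraries lay above all others. Syt4 had 1, 1 and 1 counts in control, 0, 1 and 0 in SAHA and, in Smarcb1-RE, 4, 3 and 9, with all Smarcb1-RE libraries above all others. Both passed the test only when no filter on low counts was applied, Sv2b in SAHA (edgeR, adjusted p = 0.0497) and Syt4 in Smarcb1-RE (edgeR, adjusted p = 0.0378). Stmn4 had 6, 2 and 1 counts in control, 4, 5 and 4 in SAHA and, in Smarcb1-RE, 0, 5 and 3. For Elavl3, which encodes the neuronal RNA-binding protein HuC, the counts were 4, 3 and 2, then 4, 8 and 4, then 7, 4 and 1 in the same order. These 2 genes, Cplx1, Map2 and Chgb overlapped or touched between control and each treated group. All 23 genes together summed to 25, 21 and 19 counts per library in control, to 33, 31 and 33 in SAHA, and to 29, 29 and 39 for Smarcb1-RE, and these sums did not overlap between control and the treated groups. Without Sv2b the sums were 20, 18 and 15 in control, 22, 19 and 25 in SAHA, and 28, 27 and 35 for Smarcb1-RE, so that control and SAHA overlapped.

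**Figure D1:**
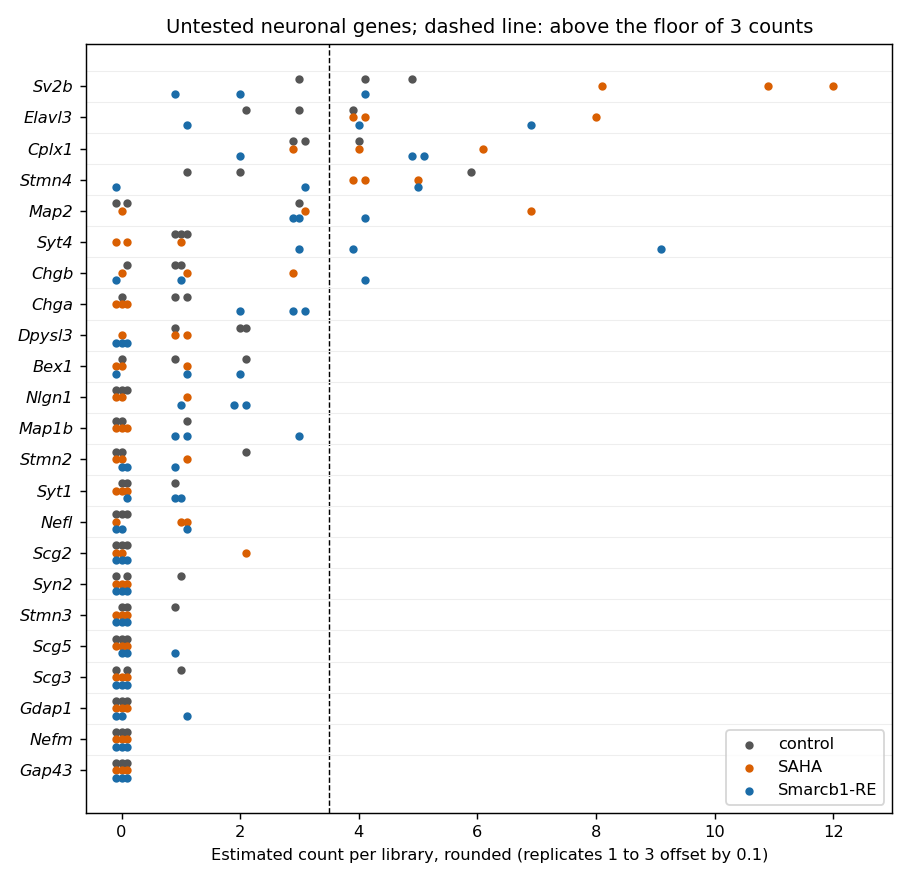
Estimated counts (horizontal axis, rounded, 1 point per library, slightly offset by replicate) of the 23 untested genes (vertical axis) in control, SAHA and Smarcb1-RE. The dashed line separates libraries above 3 counts. Sv2b, Stmn4 and Elavl3 exceeded it in all 3 SAHA libraries, but each also exceeded it in at least 1 control library.

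The 22 tested genes were already expressed in control cells, with at least 5 counts in every library, and all but Nrxn3 and Elavl4, that is 20 of them, had at least 10 counts in every library. Per kb of union exon length, the highest levels in control were those of Cplx2 (37.4 ± 2.05 CPM per kb, SD, n = 3), Syt11 (27.9 ± 0.923), Uchl1 (23.2 ± 2.58), Nefh (15.9 ± 0.295) and Nlgn2 (15.8 ± 0.971). Rest stood at 5.48 ± 0.178 CPM per kb, close to Snap25 (6.24 ± 0.108) and Vamp2 (5.94 ± 0.367). The lowest tested gene was Nrxn3 (0.0388 ± 0.00789 CPM per kb). In SAHA the order was led by Uchl1 (69.1 ± 5.34 CPM per kb) and Syt11 (40.9 ± 1.86), and in Smarcb1-RE by Nlgn2 (32.2 ± 5.24) and Syt11 (22.3 ± 0.737). In Smarcb1-RE, Nlgn2 exceeded Syt11 by less than 2 of its SDs.

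**Figure D2:**
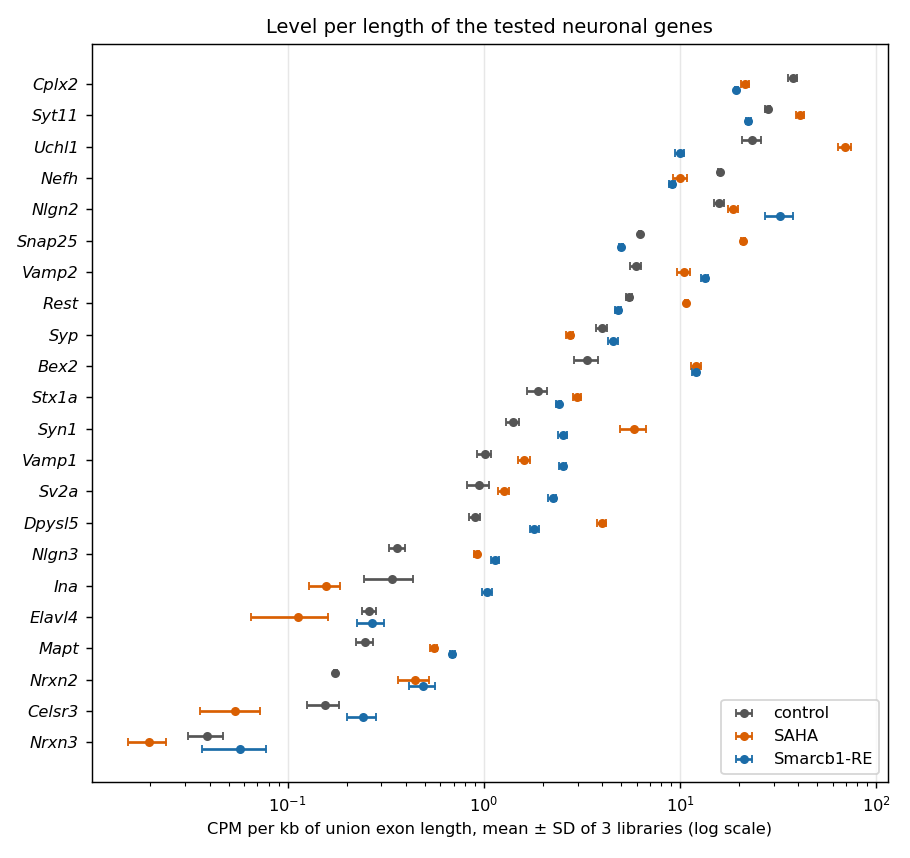
Level per length (CPM per kb of union exon, log scale) of the 22 tested genes in 3 groups. Points are means and bars are SDs of 3 libraries. Uchl1 spans the range from 9.95 in Smarcb1-RE to 69.1 CPM per kb in SAHA.

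Of the 22 tested genes, 14 rose and 6 fell in SAHA compared with control, with a median log2 fold change of 0.67. Among all 13697 tested genes, 32.6% rose and 34.3% fell, and the median was 0.00. Smarcb1-RE also gave 14 genes that rose and 6 that fell, with a median of 0.74, against 39.2% and 38.6% of all genes and a median of 0.01. Between the treatments directly, 11 of the 22 genes were higher and 9 lower in Smarcb1-RE than in SAHA, against 37.7% and 36.8% of all genes. The 2 comparisons with control share the same 3 control libraries, so the values of each are given side by side and the direct comparison serves as the test of a difference between treatments. If calls also had to reach a log2 fold change of 1 in size, SAHA kept 8 genes that rose and 3 that fell, Smarcb1-RE kept 10 and 1, and the direct comparison kept 4 and 5. The shares of all tested genes at this size were 9.85% and 2.35% in SAHA, 16.9% and 6.78% in Smarcb1-RE, and 11.5% and 8.21% in the direct comparison. When library totals replaced TMM normalization, the median of all genes in Smarcb1-RE moved to 0.17, and small changes in that group are to be read against this shift.

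**Figure D3:**
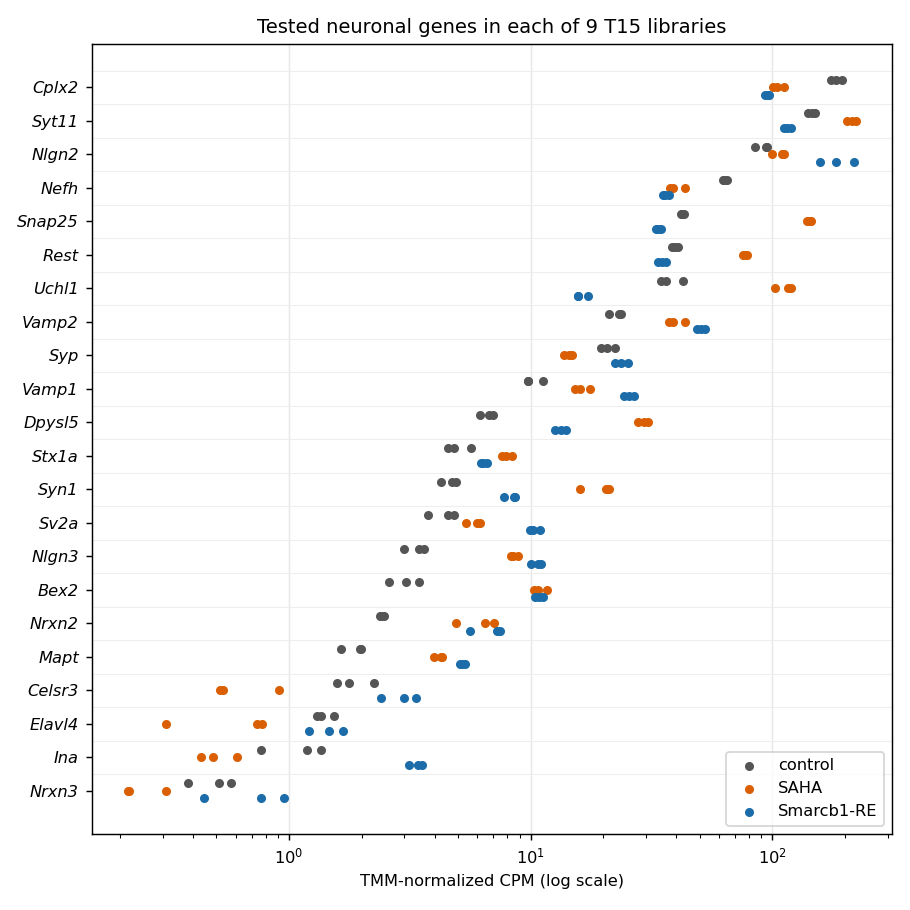
TMM-normalized CPM (log scale) of the 22 tested genes in each library. Each point is 1 library, and colors mark control, SAHA and Smarcb1-RE. For Snap25, Rest and Uchl1 the SAHA libraries lie apart to the right of all others, and for Ina and Nlgn2 the Smarcb1-RE libraries do.

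**Figure D4:**
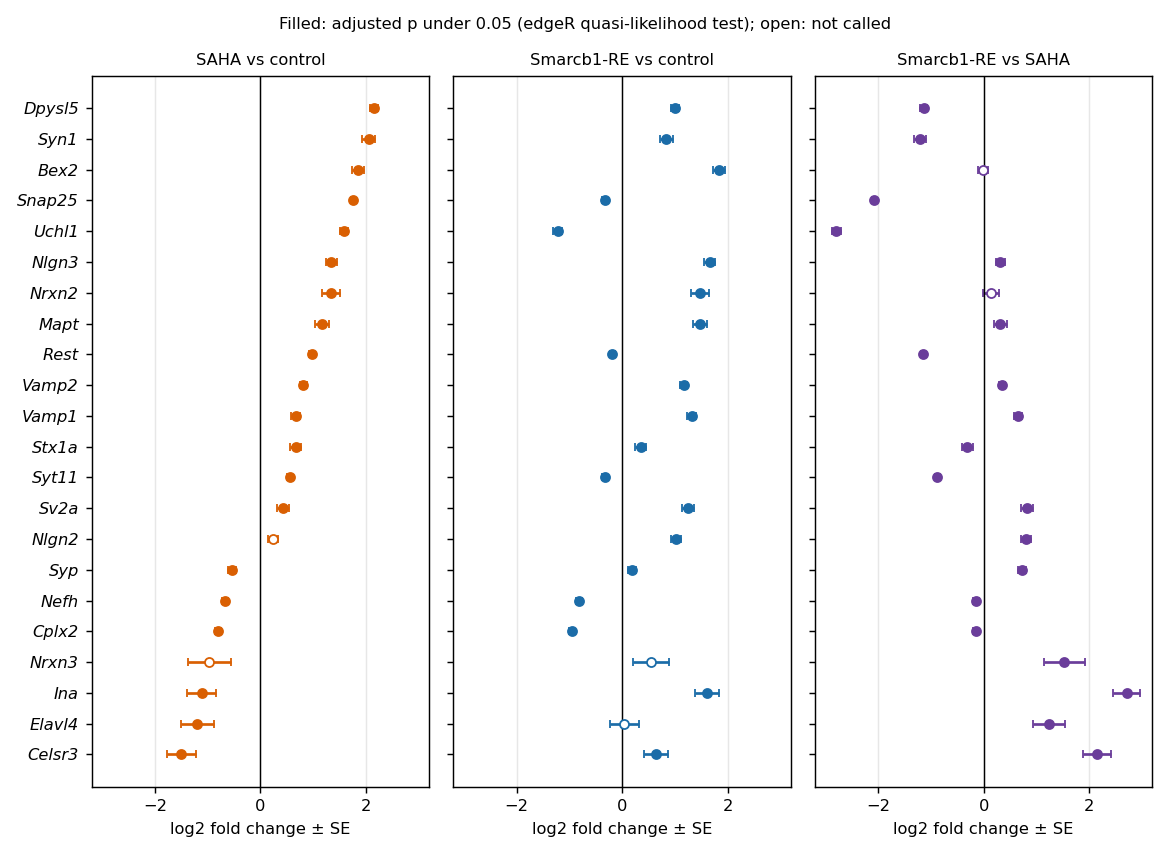
Log2 fold changes with standard errors of the 22 tested genes in 3 comparisons, ordered by the change in SAHA. Filled points have an adjusted p-value under 0.05. Snap25, Uchl1, Syt11 and Rest lie to the right of 0 in SAHA and to the left in Smarcb1-RE, and Syp, Ina and Celsr3 do the reverse.

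Rest, the repressor itself (ENSMUSG00000029249, chromosome 5, 77265491 to 77286432, plus strand in GENCODE M21, GRCm38), rose in SAHA. Its levels were 38.3, 39.4 and 40.9 CPM in control, 77.6, 78.6 and 75.9 CPM in SAHA and 34.8, 36.2 and 33.6 CPM in Smarcb1-RE. The SAHA libraries were about 1.96-fold above control (log2 fold change 0.97, SE 0.04, adjusted p = 3.66e-09, edgeR). In Smarcb1-RE all libraries lay below all control libraries, but the difference was small (log2 fold change -0.18, SE 0.05, adjusted p = 0.00307, edgeR) and was not called with library totals only (log2 fold change -0.02). Between the treatments, Rest was 2.22-fold lower in Smarcb1-RE (log2 fold change -1.15, SE 0.04, adjusted p = 2.17e-10, edgeR).

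The genes of the REST corepressor complexes and of proteins that act on REST, a list of 29, were all expressed. Of these, 14 rose and 12 fell with SAHA treatment (median log2 fold change 0.03), while 13 rose and 12 fell in Smarcb1-RE cells (median 0.10), beside shares of all genes of 32.6% and 34.3% for the former and 39.2% and 38.6% for the latter. In SAHA, Rcor1, which encodes the CoREST scaffold, rose from 69.6 ± 7.07 to 99.9 ± 1.4 CPM (SD, n = 3), whereas in Smarcb1-RE it was not called (log2 fold change 0.10, adjusted p = 0.169, edgeR). Hdac1 rose in SAHA (log2 fold change 0.54) and fell in Smarcb1-RE (-0.32), and Hdac2 fell in both (-0.14 and -0.57). The paralog Rcor2 rose slightly in both (0.23 and 0.24). Kdm1a, the histone demethylase LSD1 of the CoREST complex, rose in SAHA (0.24) and was not called in Smarcb1-RE (0.07, adjusted p = 0.0839, edgeR), while Sin3a was not called in SAHA (0.03, adjusted p = 0.46, edgeR) and fell in Smarcb1-RE (-0.16). The largest called increases were those of Zfp217 (1.54) and Hmg20b (0.96) in SAHA and of Rcor3 (1.10) and Ctdsp2 (1.06) in Smarcb1-RE. The largest decreases were those of Ctbp1 (-0.87) and Ctbp2 (-0.80) in SAHA and of Ccnf (-1.34) and Suv39h1 (-0.92) in Smarcb1-RE. Between the treatments, 9 of the 29 genes were higher and 12 lower in Smarcb1-RE, against 37.7% and 36.8% of all genes. Ctbp2 (1.55) lay at the upper end and Csnk1e (-1.33) and Zfp217 (-1.32) at the lower end.

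Membrane fusion at the synapse is carried out by SNARE proteins, and 6 of the 9 genes of this machinery were tested. In SAHA 5 of them rose and 1 fell, and in Smarcb1-RE 3 rose and 3 fell. Of all tested genes, 32.6% rose and 34.3% fell in SAHA, and 39.2% and 38.6% in Smarcb1-RE. Snap25, a SNARE protein of the plasma membrane (chromosome 2, 136713453 to 136782428, plus strand), measured 43.2, 41.8 and 42.1 CPM in control, 144, 144 and 139 CPM in SAHA and 33.1, 34.7 and 33.5 CPM in Smarcb1-RE. It thus rose 3.36-fold in SAHA (log2 fold change 1.75, SE 0.04, adjusted p = 5.37e-11, edgeR) and fell in Smarcb1-RE (log2 fold change -0.33, SE 0.04, adjusted p = 1.42e-05, edgeR), and the 3 groups did not overlap. Both synaptobrevin genes, which encode the SNARE proteins of the vesicle, rose in both treatments and were higher in Smarcb1-RE. Vamp2 went from 23.3, 21 and 23.6 CPM in control to 37.3, 43.3 and 38.7 CPM in SAHA and 48.9, 50.7 and 52.7 CPM in Smarcb1-RE, with log2 fold changes of 0.81 and 1.17 against control. Vamp1 went from 9.78, 9.76 and 11.2 CPM to 15.3, 17.6 and 16 CPM and 24.4, 26.7 and 25.6 CPM (0.67 and 1.32). In the direct comparison, Vamp1 was higher in Smarcb1-RE by 0.65 (SE 0.07, adjusted p = 3.96e-06, edgeR) and Vamp2 by 0.35 (SE 0.06, adjusted p = 0.000201).

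Stx1a, which encodes syntaxin-1A, the partner of Snap25 on the plasma membrane, rose modestly in both treatments, from 5.66, 4.82 and 4.56 CPM in control to 8.36, 7.87 and 7.62 CPM in SAHA and 6.61, 6.33 and 6.25 CPM in Smarcb1-RE. Its log2 fold changes were 0.67 and 0.35. Complexins bind the assembled SNARE complex, and Cplx2 was the most abundant gene of the list in control. The gene had 184, 195 and 174 CPM in control, 112, 104 and 101 CPM in SAHA and 92.9, 96.1 and 96.7 CPM in Smarcb1-RE. It fell in both treatments, in SAHA (log2 fold change -0.80, SE 0.05, adjusted p = 3.27e-08, edgeR) and in Smarcb1-RE (log2 fold change -0.95, SE 0.05, adjusted p = 2.68e-09, edgeR). Syt11, a synaptotagmin that does not act as a calcium sensor, moved in opposite directions. The levels of Syt11 were 149.9, 140.3 and 146 CPM in control, 203, 222 and 214 CPM in SAHA and 112, 116 and 119.8 CPM in Smarcb1-RE, with a rise in SAHA (log2 fold change 0.55) and a fall in Smarcb1-RE (-0.33).

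Of 5 genes for proteins on or around the synaptic vesicle, Syn1, Sv2a and Syp were tested. Syn1, synapsin I, which tethers vesicles to the cytoskeleton (chromosome X, 20860511 to 20921004, minus strand), had 4.25, 4.9 and 4.73 CPM in control, 15.9, 21 and 20.5 CPM in SAHA and 8.62, 8.5 and 7.76 CPM in Smarcb1-RE. It rose 4.13-fold in SAHA (log2 fold change 2.05, SE 0.12, adjusted p = 1.59e-08, edgeR) and 1.79-fold in Smarcb1-RE (log2 fold change 0.84, SE 0.12, adjusted p = 4.15e-05, edgeR), and every SAHA library exceeded every Smarcb1-RE library. Sv2a, a vesicle glycoprotein and the target of the antiepileptic levetiracetam, showed the opposite order. In control it measured 4.81, 4.57 and 3.74 CPM, in SAHA 5.41, 6.01 and 6.16 CPM and in Smarcb1-RE 10.2, 10.9 and 9.96 CPM, with log2 fold changes of 0.42 and 1.25. Syp, synaptophysin, fell in SAHA from 20.6, 22.3 and 19.5 to 13.7, 14.8 and 14.3 CPM (log2 fold change -0.54). In Smarcb1-RE, where it had 22.3, 25.3 and 23.6 CPM, its small rise of 0.19 (adjusted p = 0.022, edgeR) was not called with DESeq2, without a filter on low counts, or without control replicate 3 (0.13) or Smarcb1-RE replicate 2 (0.14).

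Of 13 genes for neurofilaments, microtubule-binding proteins and other growth cone proteins, only Nefh, Ina, Mapt and Dpysl5 were tested. Under SAHA, 2 of these rose and 2 fell, beside 32.6% (rises) and 34.3% (falls) of all tested genes. Smarcb1-RE gave 3 rises and 1 fall, where the corresponding shares were 39.2% and 38.6%. With so few genes, nothing is read from the difference between these counts. Dpysl5, a collapsin response mediator of the growth cone (chromosome 5, 30711564 to 30799375, plus strand), had the largest rise of the list in SAHA. It measured 6.17, 6.72 and 6.99 CPM in control, 27.8, 29.6 and 30.6 CPM in SAHA and 13.4, 14 and 12.6 CPM in Smarcb1-RE, a rise of 4.42-fold in SAHA (log2 fold change 2.14, SE 0.07, adjusted p = 7.06e-10, edgeR) and of 2.01-fold in Smarcb1-RE (log2 fold change 1.01, SE 0.08, adjusted p = 1.02e-07, edgeR). Mapt, which encodes the microtubule-binding protein tau, rose in both, from 1.96, 1.99 and 1.65 CPM to 3.99, 4.24 and 4.31 CPM in SAHA and 5.08, 5.36 and 5.17 CPM in Smarcb1-RE. Its log2 fold changes were 1.16 and 1.48, and the groups did not overlap.

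Intermediate filament genes of neurons did not move as a group. Nefh, the heavy neurofilament subunit, was abundant in control with 62.9, 64.9 and 62.8 CPM and fell to 43.7, 37.7 and 38.8 CPM in SAHA (log2 fold change -0.67, SE 0.05, adjusted p = 3.67e-07, edgeR) and to 35.2, 37.5 and 36 CPM in Smarcb1-RE (log2 fold change -0.81, SE 0.06, adjusted p = 2.79e-08, edgeR). Ina, alpha-internexin (chromosome 19, 47014698 to 47025327, plus strand), had 0.765, 1.18 and 1.36 CPM in control, 0.606, 0.486 and 0.431 CPM in SAHA and 3.54, 3.14 and 3.41 CPM in Smarcb1-RE. It fell in SAHA (log2 fold change -1.11, SE 0.28, adjusted p = 0.00342, edgeR) and rose 3.04-fold in Smarcb1-RE (log2 fold change 1.60, SE 0.23, adjusted p = 2.88e-05, edgeR). With 6.57-fold between the treatments, Ina showed the largest difference in favor of Smarcb1-RE (log2 fold change 2.72, SE 0.25, adjusted p = 6.42e-07, edgeR). Its exons share 456 bases with those of Nt5c2 on the opposite strand, a gene with 1066 counts on average against 38.6 for Ina, and whether strand was used in counting is not given in the sources used here. The other neurofilament genes, Nefl and Nefm, stayed at 0 or 1 count.

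Neurexins and neuroligins bind each other across the synaptic cleft, and 5 of 6 adhesion genes were tested. In Smarcb1-RE 4 of the 5 rose, and in SAHA 2 rose and 1 fell. Among all tested genes, 39.2% rose and 38.6% fell in Smarcb1-RE, and 32.6% and 34.3% in SAHA. Nlgn3 had 3.61, 3 and 3.45 CPM in control, 8.27, 8.44 and 8.83 CPM in SAHA and 10.8, 11 and 10 CPM in Smarcb1-RE, with log2 fold changes of 1.34 (SE 0.10, adjusted p = 1.72e-07, edgeR) and 1.66 (SE 0.10, adjusted p = 8.6e-09, edgeR). Of its 9271 exon bases, 3823 are shared on the same strand with an annotated gene that is not among the listed genes. What part of the Nlgn3 counts came from the shared bases was not tested. For Nrxn2 the libraries had 2.38, 2.41 and 2.47 CPM in control, 4.89, 6.5 and 7.02 CPM in SAHA and 5.59, 7.44 and 7.24 CPM in Smarcb1-RE, and the rises were 1.34 and 1.48. Nrxn2 did not differ detectably between the treatments (log2 fold change 0.14, approximate 95% interval -0.16 to 0.43). Nlgn2, which acts at inhibitory synapses in neurons, was abundant, with 84.9, 94.1 and 95 CPM in control, 100.1, 112 and 109 CPM in SAHA and 218, 157 and 184 CPM in Smarcb1-RE. It rose in Smarcb1-RE (log2 fold change 1.03, SE 0.10, adjusted p = 5.51e-07, edgeR) and narrowly missed the threshold in SAHA (log2 fold change 0.23, SE 0.10, adjusted p = 0.0506, edgeR), although its SAHA libraries all lay above control and DESeq2 called the rise.

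Celsr3, an adhesion receptor of planar cell polarity that guides axons, went down in SAHA and up in Smarcb1-RE. Its levels were 1.57, 2.24 and 1.77 CPM in control, 0.52, 0.53 and 0.904 CPM in SAHA and 2.39, 3.36 and 2.98 CPM in Smarcb1-RE. The fall in SAHA was 2.84-fold (log2 fold change -1.50, SE 0.28, adjusted p = 0.00036, edgeR). The rise in Smarcb1-RE (log2 fold change 0.64, SE 0.24, adjusted p = 0.0243, edgeR) was not called without control replicate 1 (0.53), control replicate 3 (0.59), Smarcb1-RE replicate 2 (0.52) or Smarcb1-RE replicate 3 (0.62). Between the treatments the difference was 4.43-fold (log2 fold change 2.15, SE 0.27, adjusted p = 9.87e-06, edgeR). Celsr3 and Syn1, which both hold the left RE1 half-site shown above, moved in opposite directions in SAHA. In Smarcb1-RE, Celsr3 (0.64, with the limits just given) and Syn1 (0.84) were both called higher. Scg2 and Nlgn1, which hold the half-site as well, stayed at the floor. Nrxn3 was low, with 0.51, 0.38 and 0.576 CPM in control, 0.217, 0.309 and 0.215 CPM in SAHA and 0.768, 0.443 and 0.949 CPM in Smarcb1-RE, and differed only between the treatments (log2 fold change 1.53, SE 0.39, adjusted p = 0.00311, edgeR). Against control its values were -0.97 in SAHA (adjusted p = 0.0504, edgeR) and 0.55 in Smarcb1-RE (adjusted p = 0.156). The control libraries, with 12, 9 and 14 counts, did not pass the filter on low counts by themselves, and no SAHA library exceeded 7 counts. Nrxn3 therefore entered the test through Smarcb1-RE, the group where its mean level was highest. Nothing is read from its call between the treatments, which is among the 11 counted above as higher in Smarcb1-RE.

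The neuronal RNA-binding protein HuD is encoded by Elavl4, which fell in SAHA from 1.53, 1.31 and 1.36 to 0.736, 0.309 and 0.775 CPM (log2 fold change -1.19, SE 0.31, adjusted p = 0.00402, edgeR). In Smarcb1-RE it had 1.66, 1.46 and 1.21 CPM and overlapped with control (log2 fold change 0.05, approximate 95% interval -0.49 to 0.59). Bex2, a small X-linked gene expressed in brain, had the smallest difference between the treatments. It measured 3.44, 3.04 and 2.59 CPM in control, 10.4, 10.7 and 11.6 CPM in SAHA and 10.4, 11.3 and 10.8 CPM in Smarcb1-RE, a rise of 3.6-fold (log2 fold change 1.85, SE 0.11, adjusted p = 2.31e-08, edgeR) and 3.58-fold (log2 fold change 1.84, SE 0.11, adjusted p = 8.19e-09, edgeR). The difference between the treatments was -0.01 with an approximate 95% interval of -0.19 to 0.18. Its paralog Bex1 had at most 2 counts, and reads common to such paralogs may have been divided by the authors' quantification.

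Uchl1, a ubiquitin hydrolase abundant in neurons (chromosome 5, 66676091 to 66687234, plus strand), was among the genes that differed most between the treatments, next to Ina. It had 42.5, 36.4 and 34.5 CPM in control, 103, 119.5 and 116 CPM in SAHA and 15.7, 15.7 and 17.3 CPM in Smarcb1-RE. The gene rose 2.99-fold in SAHA (log2 fold change 1.58, SE 0.08, adjusted p = 5.73e-09, edgeR) and fell 2.33-fold in Smarcb1-RE (log2 fold change -1.22, SE 0.09, adjusted p = 5.53e-08, edgeR). Between the treatments it was 6.95-fold lower in Smarcb1-RE (log2 fold change -2.80, SE 0.08, adjusted p = 2.74e-11, edgeR), and Snap25 was 4.21-fold lower (log2 fold change -2.07, SE 0.04, adjusted p = 9.02e-13, edgeR). Syn1 and Dpysl5 were also lower in Smarcb1-RE than in SAHA, by log2 fold changes of -1.21 and -1.14, although both had risen against control. Opposite called directions against control, together with a called difference between the treatments, were found for Rest, Snap25, Syt11, Uchl1, Syp, Ina and Celsr3. The share of all tested genes with such calls was not computed, so their number is not read as a trait of the list.

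Other neuronal genes were counted in the same way. Of 64 further synaptic, neuronal RNA-binding and neuropeptide-processing genes, 36 were tested. With SAHA treatment 25 of them rose and 5 fell (median log2 fold change 0.48), and 21 rose and 5 fell in Smarcb1-RE cells (median 0.85), whereas 32.6% of all genes rose and 34.3% fell in the former and 39.2% and 38.6% in the latter. Of the 36 genes, 5 had under 10 counts in every control library, among them Dnm3, Celf5, Napb and Pcsk2, and so entered the test through a treated group where they were high. Nova2, with 12, 12 and 8 counts in control, also passed only with libraries of the treated groups. Nothing is therefore read from the excess of rises. The largest called rises in SAHA were those of the splicing regulators Celf5 (3.61) and Nova2 (3.01), with Celf5 going from 0.279 ± 0.06 CPM to 3.47 ± 0.693 CPM (SD, n = 3). The largest falls were those of the active zone scaffold Bsn (-1.22) and of Stmn1 (-0.56). In Smarcb1-RE, Celf5 rose by 3.12, and Bsn (-0.66) and Camk2a (-0.63) had the largest falls. Among the genes of this list at the floor in control, those that left it included Ncam1 in SAHA and Rbfox1, Dnm3 and Pcsk2 in Smarcb1-RE. Dnm3, a dynamin gene, had 1, 2 and 1 counts in control, 1, 0 and 3 in SAHA and, in Smarcb1-RE, 89, 81 and 117, which is at least 32.9-fold higher in Smarcb1-RE than the floor of 3 counts per library. Between the treatments 15 genes were higher and 14 lower in Smarcb1-RE, against 37.7% and 36.8% of all genes. Dnm3 and Syt7 (1.48) lay at the upper end and Napb (-1.90) and Nova2 (-1.06) at the lower end.

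Of 29 transcription and splicing factors listed for roles in neurons, 13 were tested. In SAHA 8 rose and 1 fell, while 9 rose and 1 fell in Smarcb1-RE (median log2 fold changes 0.69 and 0.71). Whether factors of this list, such as Eomes and Sox4, also act in T cells was not examined, so their changes are not read as neuronal. Of the 13 factors, Neurod1, Pou3f2 and Srrm3 had under 10 counts in every control library and Eomes in 2 of the 3, so that they entered the test through a treated group, and nothing is read from these counts beside the shares of all genes given above. Of 17 of these genes at the floor in control, Pou3f2, a POU factor of neural progenitors, and Srrm3, a splicing factor for neuronal microexons, left it in both treatments, beside 0.881% of all genes at the floor in SAHA and 1.78% in Smarcb1-RE. Pou3f2 had 2, 2 and 3 counts in control, 8, 6 and 8 in SAHA and, in Smarcb1-RE, 37, 27 and 35. Srrm3 had 3, 2 and 2 counts, 5, 10 and 7 counts, and 18, 26 and 33 counts in the same order. In Smarcb1-RE they were at least 11.3-fold and 8.85-fold above the floor of 3 counts per library. Neurod1, a proneural factor, was called in both treatments but low throughout, at 0.127 ± 0.112 CPM in control, 0.61 ± 0.244 in SAHA and 0.95 ± 0.268 in Smarcb1-RE (SD, n = 3). Falls were called for Pou4f1 in SAHA (log2 fold change -0.26) and for Sox4 in Smarcb1-RE (-0.90). Compared with SAHA, 6 factors were higher in Smarcb1-RE, led by Eomes (2.77) and Pou3f2, and 4 were lower, led by Sox2 (-1.41) and Hand2 (-1.34). The shares of all genes in this comparison were 37.7% and 36.8%.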

How the data were processed

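Bulk RNA-seq of T15 cells was analysed in 9 libraries. The authors deposited estimated counts for each gene and library without normalization, and the submitters' processing notes name GRCm38, FastQC 0.11.8, MultiQC 1.7, Salmon 0.14.1 and DESeq2 1.22.2 without their roles. The study's methods describe single-end sequencing of directional libraries. Counts were rounded to whole numbers, and 99.3% of the 35288 identifiers were paired with symbols from GENCODE M21 (GRCm38). A single model of 3 groups was fitted with edgeR 4.0.16 in R 4.3.3 (TMM factors, filterByExpr at 10 counts, quasi-likelihood test, Benjamini-Hochberg adjustment over 13697 genes, threshold 0.05). SE was obtained as |log2 fold change| over the root of F, and approximate 95% intervals from SE and the normal quantile. CPM use TMM-scaled library sizes. The list, the further lists and the tests were chosen with earlier results of these data known. Values in every library were set to be given for Rest, for the 5 largest called changes per comparison and direction and for genes leaving the floor, and the remaining tested genes were added. For the further lists, the 2 largest called changes per direction and fixed cofactors were set to be named, and genes that left the floor are named as well. A few genes of the further lists and the sum of 1 marker list are not reported here. Alternatives were DESeq2 1.42.0, RLE factors, library totals, other filters, separate fits, a replicate block, a fold minimum, other floors and leaving out each library. The calculations were tested on simulated data.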

Additional observations from a re-analysis of the deposited data

How the results depend on the processing

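With library totals, 6 instead of 9 genes were lower in Smarcb1-RE than in SAHA, and the other counts of called genes moved by less than 1.5 times except when calls had to reach a log2 fold change of 1 in size, which gave 8 and 3 genes that rose and fell in SAHA, 1 that fell in Smarcb1-RE, and 4 higher and 5 lower in Smarcb1-RE than in SAHA, since it adds a criterion. A floor of 1 count gave 2 genes that left it in Smarcb1-RE, and leaving out 1 library gave 0 to 2 in SAHA and 0 to 1 in Smarcb1-RE. Of 1049 combinations of gene, comparison and alternative (fold minimum aside), 1005 kept direction and side of the threshold, 26 lost the call, 9 gained it and 9 changed sign. With library totals, Bex2 (0.15), Cplx2 (0.0096) and Nefh (0.015) became positive in Smarcb1-RE against SAHA, as did Bex2 (0.013) with at least 10 counts in every library, where Nrxn3 and Elavl4 were not tested. With 1 library left out, Bex2 ranged from -0.057 to 0.035 and Nrxn2 from -0.014 to 0.25 in that comparison, and Elavl4 in Smarcb1-RE against control from -0.081 to 0.16. Besides Celsr3 and Syp, calls lost without 1 library were those between the treatments of Mapt (without any SAHA or Smarcb1-RE library, 0.27 to 0.33), Nefh (without SAHA replicate 1, -0.09, or Smarcb1-RE replicate 1, -0.13, or 3, -0.14) and Cplx2 (without SAHA replicate 1, -0.12, or Smarcb1-RE replicate 1, -0.14). In SAHA against control, Nrxn3 was called without control replicate 2 (-1.12) or Smarcb1-RE replicate 2 (-0.97), and Nlgn2 without Smarcb1-RE replicate 1 or 2 (0.23 each). Samples with the same replicate number did not deviate together (correlations from -0.07 to 0.04, and best with the own number in 6 of 18 cases). With the replicate block, 14 genes rose and 6 fell in SAHA, 14 and 6 in Smarcb1-RE, and 10 were higher and 8 lower between the treatments, where Mapt (edgeR, adjusted p = 0.0608) and Nefh (edgeR, adjusted p = 0.0517) were no longer called. At this depth a count of 0 allows up to 3 counts per library and does not show that a gene is absent. Whether genes with 1 to 3 counts are expressed was not tested.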
